A study of Mus musculus with 12 samples.

Results

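Both single treatments of a mouse tumour experiment were compared directly with each other: DSF by mouth against a blocking antibody to PD-1 given into the peritoneal cavity. The comparison used 6 of the 12 sequenced tumours, chosen by treatment, with 3 libraries per treatment, and all genes of the deposited gene table were considered. The tumours had been grown under the skin of the right flank of BALB/c mice from 4T1 cells, a mammary carcinoma line of the same mouse strain, so the hosts had a working immune system. The groups used here are DSF tumours, anti-PD-1 tumours and control tumours of mice assigned to neither treatment, whose levels are given beside each result; a combination arm entered the model fit and is not described. The mice had been randomised into 4 arms of 5, and the labels give no dose, no treatment duration and no age. Nothing in the labels says outright that each library came from a different mouse, so the p-values measure the spread between these libraries.

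The letters DSF usually stand for disulfiram. This drug blocks aldehyde dehydrogenase, its metabolites bind copper, and it has been linked to p97 cofactors, gasdermin D and DNA methylation. Antibodies to PD-1 block an inhibitory receptor on T cells, and T cells released from it can secrete interferon gamma. Type I interferons signal through their own receptor, JAK kinases and transcription factors to switch on antiviral genes, while interferon gamma, through a receptor of its own, switches on large GTPases, IRF1 and, through CIITA, antigen presentation on MHC class II. Many genes answer to both.

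Total counts were 13928008 to 16790368 per library in these 6 tumours, and 15887 to 16503 genes were detected in each. The tumour epithelium keratins were present in all of them: Krt8 had 698, 654 and 586 CPM (counts scaled to library size) in DSF tumours and 582, 606 and 450 CPM in anti-PD-1 tumours. DSF replicate 2 stood apart from the others. Its FPKM values correlated with those of the other 5 libraries at a Pearson's r of 0.916 to 0.922 across genes, where those 5 had an r of 0.985 to 0.995 with each other. Such an r across genes describes likeness only, since genes are not replicates. Adipocyte markers took 0.989% of the counts of DSF replicate 2, against 0.0289% and 0.0202% in the other DSF libraries and 0.0582%, 0.0534% and 0.0257% in anti-PD-1 libraries. The adipocyte hormone gene Adipoq had 465 CPM in DSF replicate 2 and at most 16.8 CPM in the other 5. Markers of skin and hair follicle differed the other way: they took 0.0443%, 0.035% and 0.0252% of counts in DSF tumours and 0.15%, 0.0265% and 0.0792% in anti-PD-1 tumours, so anti-PD-1 replicates 1 and 3 were above all DSF libraries and anti-PD-1 replicate 2 was not. The part of either tissue in the results below was not tested beyond the values given without DSF replicate 2 and with each marker score in the model. These are bulk libraries, in which fewer cells of a type and less RNA per cell cannot be told apart.

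**Figure D1:**
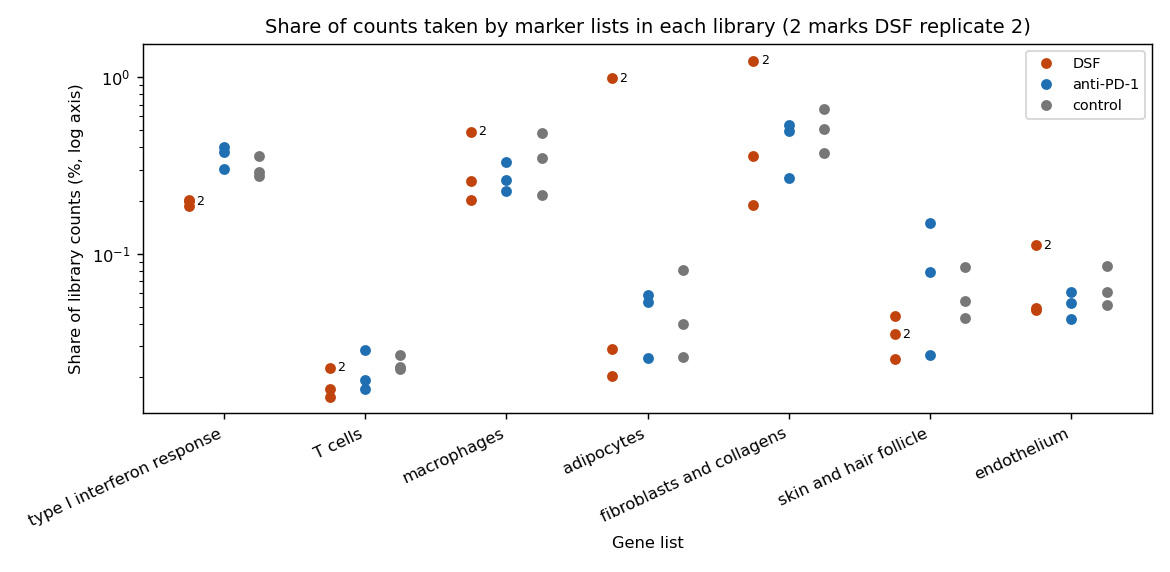
Share of each library's counts (percent, log axis) taken by marker lists, with 1 point per library in DSF, anti-PD-1 and control tumours and the number 2 on DSF replicate 2. Adipocyte markers reached 0.989% in DSF replicate 2, while the type I interferon list lay between 0.187% and 0.202% in DSF tumours and between 0.304% and 0.404% in anti-PD-1 tumours.

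The genes that separated the treatments by edgeR were antiviral genes of the type I interferon response, and all were lower in DSF tumours. Of 14144 genes tested, 10 were called lower in DSF than in anti-PD-1 tumours (0.0707% of the genes tested), by edgeR's quasi-likelihood test at a Benjamini-Hochberg adjusted p under 0.05. These were Cmpk2, Parp14, Ifi44, Ifit2, Ifih1, Ifit3, Ifit1, Usp18, Rtp4 and Eif2ak2. Their levels were 1.64-fold to 3.62-fold lower in DSF tumours. In each of the 10 genes all 3 DSF libraries lay below all 3 anti-PD-1 libraries, which 5.23% of all genes showed. The 10 were picked by a test on these same libraries, so the lack of overlap is no further support. Each of the 10 is a member of a list of type I interferon genes of which 36 were tested. That list was written with earlier results of these data known, so membership is not independent evidence. No gene was called higher in DSF tumours by edgeR (0% of the genes tested), although 494 had an unadjusted p under 0.05 in that direction (3.49%). In the lower direction 629 did (4.45%), and 1123 in either (7.94%). DESeq2 called 146 genes, 21 higher and 125 lower, of which 30 were in the type I interferon list. On the scale of FPKM, which divides by gene length, the mean levels of the 10 genes were between 3.54 and 30.6 in DSF tumours and between 10.95 and 57.0 in anti-PD-1 tumours, so they were transcripts of low to moderate level.

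**Figure D2:**
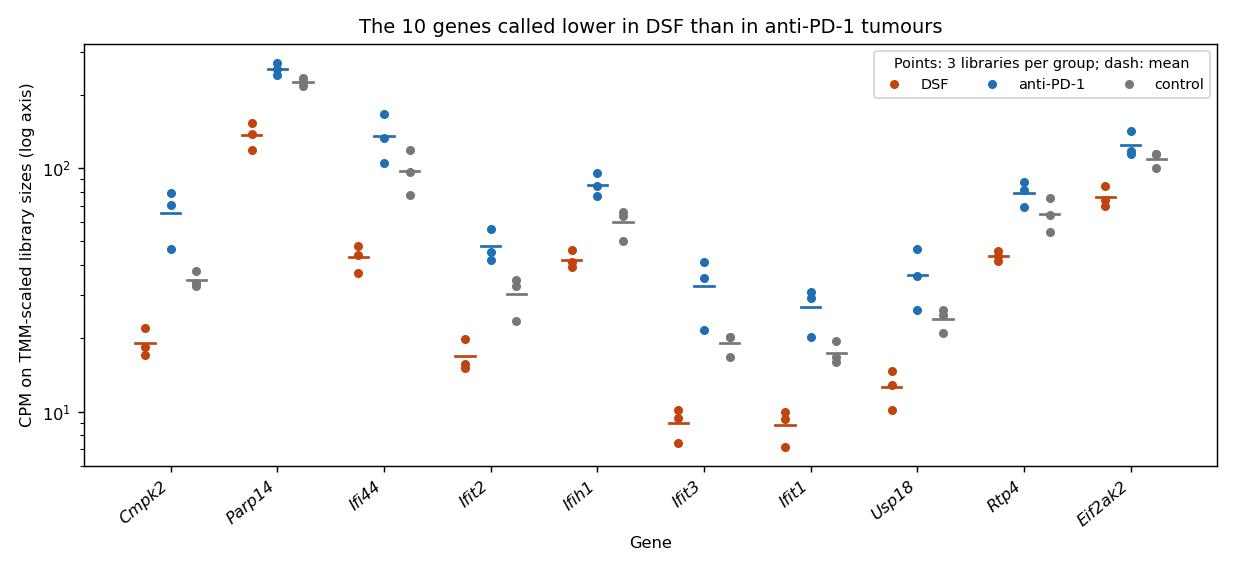
CPM (log axis) of the 10 genes called lower in DSF tumours, with 1 point per library and a dash at the mean of each group, for DSF, anti-PD-1 and control tumours. The DSF points lie below the anti-PD-1 points for each gene, for example 17.0 to 22.1 CPM against 46.3 to 79.0 CPM for Cmpk2.

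Genes of this response are known to carry interferon-stimulated response elements near their starts, to which IRF proteins bind. RefSeq promoter windows of the GRCm38.p6 build, from 250 bases before to 50 bases after a start, were matched to 7 of the 10 called genes by gene identifier. The motif searched was GAAANNGAAA on both strands. It was found in 4 of those 7 genes (Eif2ak2, Ifit3, Ifih1 and Ifit1), against 3.89% of the 11180 tested genes with a window and 3.44% of all 32851 windows. The stretches that hold it are shown because the same letters recur in several of the called genes. They are written 5′ to 3′ on the strand of the gene, and capitals mark the motif or its reverse complement.
Ifit1, chr19:34640784-34640833, plus strand: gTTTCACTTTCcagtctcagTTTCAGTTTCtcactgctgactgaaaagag
Ifit3, chr19:34583387-34583436, plus strand: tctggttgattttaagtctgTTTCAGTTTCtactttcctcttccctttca
Ifih1, chr2:62646206-62646233, minus strand: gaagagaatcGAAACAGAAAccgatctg
Eif2ak2, chr17:78882535-78882564, minus strand: agtccgccggGAAAACGAAAcagaagagaa
The Ifit1 and Ifit3 stretches lie upstream of the start and those of Ifih1 and Eif2ak2 just downstream of it. Cmpk2, Ifi44 and Ifit2 had a window without these letters, which says nothing of more distant or degenerate elements. Of the whole type I interferon list, 13 of 27 genes with a window held the motif (48.1%). A match describes the sequence and does not show that a factor was bound in these tumours.

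Among the transcription factors and feedback regulators of the pathway, 1 gene was called. Usp18 encodes the protease that removes ISG15 from proteins and restrains the type I interferon receptor. It had 14.7, 12.9 and 10.1 CPM in DSF tumours, against 36.1, 46.6 and 26.1 CPM in anti-PD-1 tumours and 26.3, 25 and 21.0 CPM in controls. It fell by 1.53 ± 0.22 on the log2 scale (SE, edgeR adjusted p = 0.0374), with both treated groups apart. Irf7, the factor that amplifies type I interferon production, had 58.9, 61.7 and 43.4 CPM in DSF tumours, against 147, 142 and 106 CPM in anti-PD-1 tumours and 87.3, 144 and 95.7 CPM in controls. The DSF libraries were again all below, at a log2 fold change of -1.27 ± 0.20, but the edgeR adjusted p of 0.0613 missed the threshold.

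Sensors of viral nucleic acid included 2 called genes. Ifih1 encodes MDA5, a cytoplasmic sensor of long double-stranded RNA. It had 45.9, 39.3 and 41.1 CPM in DSF tumours, against 84.0, 95.3 and 77.0 CPM in anti-PD-1 tumours and 50.4, 65.8 and 63.4 CPM in controls. It fell by 1.02 ± 0.12 on the log2 scale (edgeR adjusted p = 0.00954), and every DSF library was below every control and every anti-PD-1 library. Eif2ak2 encodes PKR, the kinase that halts translation on binding double-stranded RNA. It had 84.3, 69.6 and 74.0 CPM in DSF tumours and 118, 142 and 114 CPM in anti-PD-1 tumours, and fell by 0.71 ± 0.11 on the log2 scale (edgeR adjusted p = 0.0455). This was the smallest of the called differences in fold and the one nearest the threshold. Dhx58, which encodes the RNA helicase LGP2, had 15.8, 21.5 and 15.2 CPM in DSF tumours and 37.4, 37.4 and 29.7 CPM in anti-PD-1 tumours, with an edgeR adjusted p of 0.0672 over all libraries. All 5 sensor genes of the type I interferon list had negative log2 fold changes, against 44.9% of all genes, with a median of -0.99. Their groups did not overlap, which 5.23% of all genes showed in this direction.

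The IFIT and OAS families held the called gene with the largest fold difference. IFIT proteins bind viral RNA ends and OAS enzymes make the messenger that activates RNase L. Ifit3 had 10.2, 9.43 and 7.41 CPM in DSF tumours, against 41.2, 35.3 and 21.5 CPM in anti-PD-1 tumours and 20.2, 16.8 and 20.2 CPM in controls. It fell by 1.86 ± 0.23 on the log2 scale (edgeR adjusted p = 0.0113), which is 3.62-fold. Reads of Ifit3 may be shared with its near-identical copy Ifit3b, so the division between both is uncertain. Ifit1 had 10.003, 9.37 and 7.19 CPM in DSF tumours, against 30.8, 29.2 and 20.3 CPM in anti-PD-1 tumours and 19.6, 16.0 and 16.7 CPM in controls, and fell by 1.60 ± 0.23 (edgeR adjusted p = 0.0374). Ifit2 had 19.9, 15.0 and 15.7 CPM in DSF tumours, against 56.2, 45.4 and 41.9 CPM in anti-PD-1 tumours and 34.7, 23.7 and 32.9 CPM in controls, and fell by 1.5 ± 0.17 (edgeR adjusted p = 0.00938). In the 3 genes, each DSF library was below every control and each control below every anti-PD-1 library. None of the 5 OAS family genes tested was among the 10 genes called above. Some were called under other settings, and are named here after the calls were seen. Both limma and edgeR with the 5 CPM filter called Oas1a and Oasl2. With library totals only, edgeR called Oas1a, Oas3 and Oasl2, and with the adipocyte score Oas1a, Oasl1 and Oasl2. Across the 9 IFIT and OAS genes all log2 fold changes were negative, against 44.9% of all genes, and the median was -1.2. The groups did not overlap in 8 (88.9%, against 5.23% of all genes in this direction).

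Other antiviral effectors supplied Cmpk2, Ifi44 and Rtp4, and the ADP-ribosylating enzymes supplied Parp14. Cmpk2 encodes a mitochondrial nucleotide kinase and had the smallest p of all genes. It had 22.1, 17.0 and 18.5 CPM in DSF tumours, against 70.4, 79.0 and 46.3 CPM in anti-PD-1 tumours and 37.8, 33.9 and 32.7 CPM in controls, and fell by 1.76 ± 0.19 on the log2 scale (edgeR adjusted p = 0.00938). The lowest anti-PD-1 library was 46.3 CPM, above every DSF and every control library. Ifi44, an interferon-induced gene of incompletely known function, had 47.9, 37.2 and 44.1 CPM in DSF tumours, against 132, 167 and 105 CPM in anti-PD-1 tumours and 96.7, 118 and 77.6 CPM in controls, and fell by 1.65 ± 0.19 (edgeR adjusted p = 0.00938). Rtp4, a receptor transporter family member with antiviral activity, had 41.7, 45.5 and 43.6 CPM in DSF tumours and 80.9, 87.7 and 69.0 CPM in anti-PD-1 tumours, and fell by 0.86 ± 0.12 (edgeR adjusted p = 0.0374). Parp14, a mono-ADP-ribosyltransferase, was the most abundant called gene by CPM, with 153, 119 and 138 CPM in DSF tumours, against 269, 254 and 240 CPM in anti-PD-1 tumours and 218, 234 and 226 CPM in controls. It fell by 0.90 ± 0.10 (edgeR adjusted p = 0.00938), and its replicates were tight in all 3 groups. Isg15, the ubiquitin-like protein attached to other proteins under interferon, had 43.6, 28.2 and 38.6 CPM in DSF tumours and 84.8, 102 and 63.1 CPM in anti-PD-1 tumours, at an edgeR adjusted p of 0.0638.
Its promoter window holds 3 overlapping copies of the motif, shown because no called gene has so dense a run.
Isg15, chr4:156200855-156200904, minus strand: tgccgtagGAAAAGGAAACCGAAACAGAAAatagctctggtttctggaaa

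Over the whole type I interferon list, 35 of the 36 tested genes had a negative log2 fold change. In 33 of them all DSF libraries lay below all anti-PD-1 libraries (91.7%, against 5.23% of all genes). The median was -0.99, against 0.02 over all genes tested, of which 44.9% were negative. The exception was Ifi27l2a, named here after its values were seen, with 13.3, 294 and 8.29 CPM in DSF tumours and 46.6, 52.5 and 22.4 CPM in anti-PD-1 tumours. Its one high value is DSF replicate 2, and its log2 fold change was 1.38 with that library and -1.90 without it. Among the 50 genes with the smallest p that were lower in DSF, 26 belonged to this list. The list took 0.202%, 0.199% and 0.187% of counts in DSF tumours, against 0.377%, 0.404% and 0.304% in anti-PD-1 tumours and 0.290%, 0.360% and 0.276% in controls, so all DSF libraries were below all controls while anti-PD-1 and control libraries overlapped.

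A list of interferon genes, receptors, kinases, sensors and adaptors further up the pathway had 19 tested members, and edgeR called none. The median log2 fold change was -0.02 and 13 of 19 were negative, against 44.9% of all genes. Of the 19, 6 were lower at an unadjusted p under 0.05 (31.6%, against 4.45% of all genes), and 5 had all DSF libraries below all anti-PD-1 libraries (26.3%, against 5.23%). The receptor chain gene Ifnar1, picked here after its value was seen, had 130, 117 and 108 CPM in DSF tumours and 119, 109 and 109 CPM in anti-PD-1 tumours, so both groups overlapped. The 3 members with the smallest p were Adar, Tlr3 and Samhd1, which interferon itself is known to induce. Adar, the RNA-editing deaminase, had 134, 106 and 129 CPM in DSF tumours and 168, 189 and 175 CPM in anti-PD-1 tumours (log2 fold change -0.53 ± 0.10, edgeR adjusted p = 0.125). Tlr3, an endosomal sensor of double-stranded RNA, had 39.3, 34.9 and 45.1 CPM in DSF tumours and 54.5, 52.9 and 51.0 CPM in anti-PD-1 tumours, and Samhd1, which depletes nucleotides, had 284, 224 and 212 CPM in DSF tumours and 442, 326 and 331 CPM in anti-PD-1 tumours. In both genes the groups did not overlap and the adjusted p was 0.309. This list was written after the first results for these tumours had been seen.

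Against control tumours, the 10 called genes had intermediate control means: in all 10 the control mean lay between both treated means. All DSF libraries lay below all controls in 10 of 10, and all anti-PD-1 libraries lay above all controls in 6 of 10 (Cmpk2, Ifit2, Ifit3, Ifih1, Parp14 and Ifit1). The log2 fold changes were -1.18 to -0.51 for DSF minus control, with edgeR adjusted p of 0.187 to 0.218, and 0.17 to 0.91 for anti-PD-1 minus control, with an adjusted p of 0.999. Neither treatment had a called gene against control by edgeR, where 1501 genes for DSF (10.6%) and 245 for anti-PD-1 (1.73%) had an unadjusted p under 0.05, and DESeq2 called 221 and 0 genes. The 3 comparisons share libraries, so these values are set side by side and not counted as separate evidence. Over the type I interferon list the medians were -0.63 for DSF minus control and 0.31 for anti-PD-1 minus control, and the control mean lay between both treatments in 34 of 36 genes.

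Leaving out DSF replicate 2 left 2 DSF libraries against 3 anti-PD-1 libraries. Of 14293 genes then tested, 7 were called lower in DSF (0.049%) and none higher (0%). At an unadjusted p under 0.05, 404 were higher (2.83%), 760 lower (5.32%) and 1164 either (8.14%). Of the 7 called genes, 6 were also called with all libraries: Cmpk2, Ifi44, Ifih1, Ifit2, Ifit3 and Parp14, each with an edgeR adjusted p of 0.0495. The other was Dhx58, at a log2 fold change of -1.17. Ifit1, Usp18, Rtp4 and Eif2ak2 kept log2 fold changes of -1.63, -1.54, -0.89 and -0.65 and had adjusted p of 0.133 to 0.205. The type I interferon list had 36 of 36 negative values without this library and a median of -0.96, where 49.9% of all genes were negative and 50.1% positive.

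The number of calls depended on the other choices. With only the 6 DSF and anti-PD-1 libraries in the model no gene passed (smallest edgeR adjusted p 0.270, 702 genes at an unadjusted p under 0.05), and none passed without DSF replicate 3 (smallest adjusted p 0.0892, 1252 genes at an unadjusted p under 0.05). The count was 27 when DSF replicate 1 was left out, and it was 6 when either of anti-PD-1 replicates 1 and 2, control replicate 1 or combination replicate 1 was left out. With the skin marker score as a covariate only Cmpk2 and Ifi44 passed, at a type I interferon median of -1.04. With the adipocyte score 29 genes passed, 28 of them lower, and 19 were in the type I interferon list. Across the 22 alternatives the log2 fold change of Cmpk2 stayed between -1.95 and -1.59 and that of Parp14 between -0.99 and -0.80.

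Genes induced mainly by interferon gamma had lower levels in DSF tumours, but none was called by edgeR with all libraries. Without DSF replicate 1, Irgm2 was called. The immunity-related GTPases and guanylate-binding proteins, which attack vacuoles that hold microbes, had 17 tested members, all with negative log2 fold changes from -1.22 to -0.77 and a median of -1.03. In all 17 the DSF libraries lay below the anti-PD-1 libraries, against 5.23% of all genes. Irgm2, a regulator of these GTPases, had 118, 67.1 and 94.4 CPM in DSF tumours, against 224, 209 and 173 CPM in anti-PD-1 tumours and 179, 233 and 156 CPM in controls, at an edgeR adjusted p of 0.0936. Gbp3 had 97.9, 42.8 and 96.0 CPM in DSF tumours, against 211, 184 and 155 CPM in anti-PD-1 tumours and 198, 209 and 131 CPM in controls, at an adjusted p of 0.231. The most abundant member, Gbp2, had 317, 146 and 321 CPM in DSF tumours and 571, 446 and 388 CPM in anti-PD-1 tumours. Tgtp2, whose reads may be split with its near-identical copy Tgtp1, had 122, 52.4 and 115 CPM in DSF tumours and 257, 209 and 184 CPM in anti-PD-1 tumours. In these 4 genes DSF replicate 2 was the lowest library, and without it the list median was -0.76.

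In these GTPase genes the controls lay near the anti-PD-1 tumours. The list medians were -1.15 for DSF minus control and -0.08 for anti-PD-1 minus control, and the control mean lay between both treatments in 4 of 17 genes. The motif GAAANNGAAA was present in 10 of the 11 GTPase genes with a promoter window (90.9%). The stretches of Irgm2 and Gbp3, members with the smallest p values, are shown for comparison with the called genes.
Irgm2, chr11:58214893-58214942, plus strand: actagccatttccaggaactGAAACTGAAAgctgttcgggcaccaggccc
Gbp3, chr3:142559985-142560034, plus strand: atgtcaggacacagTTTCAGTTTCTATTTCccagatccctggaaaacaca

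No gene of interferon gamma signalling was called by edgeR with all libraries, and Cxcl10 was called without DSF replicate 1. Ifng, which encodes interferon gamma, had 1.74, 0.500 and 1.10 CPM in DSF tumours, against 3.97, 1.57 and 2.11 CPM in anti-PD-1 tumours and 4.26, 6.07 and 2.18 CPM in controls, with overlap between the treated groups and an edgeR adjusted p of 0.620. Irf1, the first transcription factor it induces, had 215, 130 and 234 CPM in DSF tumours and 350, 344 and 275 CPM in anti-PD-1 tumours, which did not overlap (adjusted p = 0.309). The chemokines Cxcl9 and Cxcl10, which draw CXCR3-bearing T cells, were likewise apart. Cxcl9 had 168, 49.4 and 131 CPM in DSF tumours and 353, 190 and 209 CPM in anti-PD-1 tumours (log2 fold change -1.11 ± 0.38, adjusted p = 0.526). Cxcl10 had 30.8, 11.4 and 19.6 CPM in DSF tumours and 66.5, 40.5 and 51.2 CPM in anti-PD-1 tumours (log2 fold change -1.35 ± 0.30, adjusted p = 0.217). Over the 13 tested genes of this signalling list the median was -0.24 and 9 were negative, where 44.9% of all genes were.

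Genes of antigen presentation on MHC class II had the same sign. All 10 tested genes had negative log2 fold changes, against 44.9% of all genes, and 8 had all DSF libraries below all anti-PD-1 libraries, against 5.23% of all genes. The median was -0.89 and edgeR called none. Ciita, the master activator of MHC class II genes, had 29.2, 16.0 and 17.4 CPM in DSF tumours, against 63.4, 34.5 and 40.7 CPM in anti-PD-1 tumours and 49.1, 57.1 and 40.5 CPM in controls (edgeR adjusted p = 0.217). Cd74, the invariant chain, was the most abundant, with 782, 479 and 687 CPM in DSF tumours, against 1591, 981 and 963 CPM in anti-PD-1 tumours and 1263, 1498 and 1278 CPM in controls (adjusted p = 0.294). H2-Aa, H2-Ab1 and H2-Eb1, which encode class II chains, had log2 fold changes of -0.88, -0.90 and -1.04. The list medians were -1.17 for DSF minus control and -0.17 for anti-PD-1 minus control, so anti-PD-1 tumours were near controls here, and without DSF replicate 2 the median between treatments was -0.72. None of the 7 class II genes with a promoter window held the motif.

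Genes of class I presentation and the immunoproteasome had a median nearer 0. All 20 tested were negative, against 44.9% of all genes, at a median log2 fold change of -0.41. Without DSF replicate 2 the median was -0.18 and 17 of 20 were negative, against 49.9% of all genes. The immunoproteasome subunit gene Psmb9 had 88.7, 55.1 and 101 CPM in DSF tumours and 143, 156 and 106 CPM in anti-PD-1 tumours (edgeR adjusted p = 0.448). H2-M3, a class I molecule that presents formylated peptides, had 31.8, 24.0 and 38.6 CPM in DSF tumours and 45.2, 52.7 and 41.5 CPM in anti-PD-1 tumours (adjusted p = 0.379). In both genes the groups did not overlap, with DSF replicate 3 close below anti-PD-1 replicate 3.

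**Figure D3:**
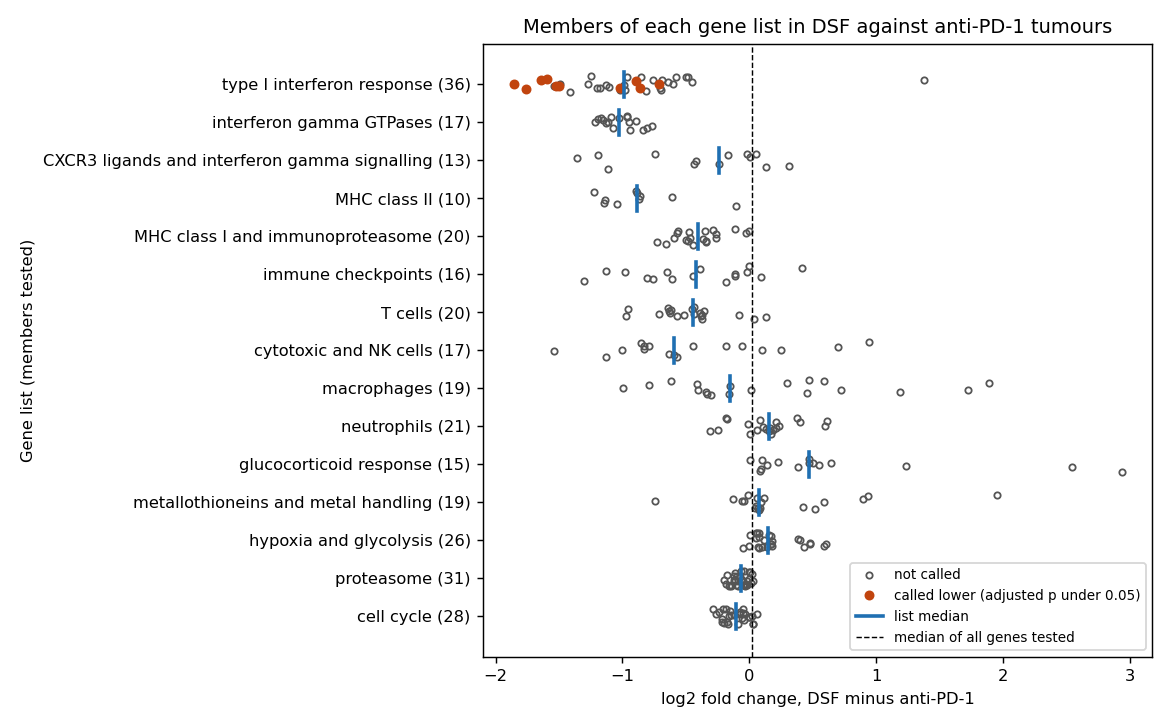
log2 fold change of DSF minus anti-PD-1 for each tested member of the gene lists described here, with 1 point per gene, a mark at the list median and the number of tested members beside each name. The type I interferon and GTPase lists have medians of -0.99 and -1.03, against 0.02 over all genes tested.

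No gene of the lymphocyte or checkpoint lists was called by edgeR. Pdcd1, which encodes PD-1 itself, had 2.77, 0.812 and 1.32 CPM in DSF tumours, against 6.17, 2.72 and 3.25 CPM in anti-PD-1 tumours and 3.53, 4.46 and 2.77 CPM in controls, with overlap and an edgeR adjusted p of 0.552. Its ligand gene Cd274 (PD-L1), itself interferon-inducible, had 81.1, 45.0 and 72.7 CPM in DSF tumours and 119, 107 and 85.7 CPM in anti-PD-1 tumours (adjusted p = 0.552). Ctla4 had 3.87, 1.75 and 3.67 CPM in DSF tumours and 9.61, 4.11 and 6.62 CPM in anti-PD-1 tumours, and Lag3 had 2.39, 1.56 and 2.71 CPM in DSF tumours and 5.93, 3.93 and 3.31 CPM in anti-PD-1 tumours. The groups did not overlap for Cd274, Ctla4 and Lag3, and for no other gene of the checkpoint list (18.75% of the list, against 5.23% of all genes in this direction). Of 16 checkpoint genes 14 had a negative log2 fold change, where 44.9% of all genes did, and the median was -0.42.

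Markers of T cells took 0.0155%, 0.0226% and 0.0171% of counts in DSF tumours and 0.0284%, 0.0192% and 0.0171% in anti-PD-1 tumours, which overlapped. Of 20 T cell genes 18 had negative log2 fold changes, where 44.9% of all genes did, and the median was -0.44. At an unadjusted p under 0.05, 1 was lower (5%, near the 4.45% of all genes). In 2 the DSF libraries lay below all anti-PD-1 libraries (10%, against 5.23% of all genes). Cd3e, part of the T cell receptor complex, had 4.71, 3.31 and 2.93 CPM in DSF tumours and 8.30, 3.27 and 4.69 CPM in anti-PD-1 tumours, and Cd8a had 11, 4.25 and 8.51 CPM in DSF tumours and 17.7, 9.98 and 9.15 CPM in anti-PD-1 tumours, with overlap in both. Foxp3, the factor that defines regulatory T cells, had 4.00, 1.06 and 2.35 CPM in DSF tumours and 9.72, 3.57 and 6.02 CPM in anti-PD-1 tumours, again with overlap. The costimulatory receptor gene Cd28 had 2.77, 1.44 and 1.91 CPM in DSF tumours and 5.40, 3.57 and 2.95 CPM in anti-PD-1 tumours, without overlap (edgeR adjusted p = 0.514).

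Cytotoxic and natural killer genes went in both directions. Klrk1, which encodes the activating receptor NKG2D, had 7.61, 2.93 and 3.89 CPM in DSF tumours, against 21.1, 8.16 and 12.7 CPM in anti-PD-1 tumours and 13.0, 17.7 and 12.0 CPM in controls (log2 fold change -1.54 ± 0.39, edgeR adjusted p = 0.309). Klrb1c, the NK1.1 receptor gene, had 0.968, 0.687 and 0.880 CPM in DSF tumours and 2.55, 1.15 and 1.87 CPM in anti-PD-1 tumours. The granzyme gene Gzma had 7.87, 7.12 and 7.33 CPM in DSF tumours, against 5.22, 3.81 and 2.59 CPM in anti-PD-1 tumours and 5.48, 8.48 and 3.53 CPM in controls, so its DSF libraries were above (log2 fold change 0.94 ± 0.33, adjusted p = 0.553). Gzmb, another granzyme gene, had 36.7, 23.5 and 40.5 CPM in DSF tumours and 30.8, 44.5 and 39.0 CPM in anti-PD-1 tumours, with overlap. The 17 genes tested had a median of -0.60, which was -0.35 without DSF replicate 2.

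No gene was called higher in DSF tumours by edgeR with all libraries and no covariate, against 21 by DESeq2. With the adipocyte score as a covariate edgeR called 1 higher, and without DSF replicate 1 it called 3, of which Pf4 was one. Slc27a1, a fatty acid transporter gene, came first, with 160, 200 and 154 CPM in DSF tumours, against 96.9, 118 and 107 CPM in anti-PD-1 tumours and 110, 129 and 119 CPM in controls (log2 fold change 0.67 ± 0.14, edgeR adjusted p = 0.191). Ampd3, an AMP deaminase gene, had 93.4, 83.7 and 103 CPM in DSF tumours and 58.4, 77.0 and 62.1 CPM in anti-PD-1 tumours, and Casp6, an executioner caspase gene, had 59.1, 71.9 and 66.9 CPM in DSF tumours and 48.3, 45.2 and 48.4 CPM in anti-PD-1 tumours (adjusted p = 0.217 for both). Efna1, which encodes a ligand of Eph receptors, had 75.4, 58.4 and 90.8 CPM in DSF tumours and 38.6, 45.8 and 46.2 CPM in anti-PD-1 tumours. Ndfip1, Qsox1 and Tcp11l1 had log2 fold changes of 0.35, 0.60 and 0.44. In all 7 of these genes the groups did not overlap, which 5.2% of all genes showed in this direction. The 7 were picked by small p in these same libraries, so the lack of overlap is no further support. Without DSF replicate 2 the 5 genes with the smallest p were Cln6, Efna1, Ier3, Ulk3 and Ampd3, with log2 fold changes of 0.51, 0.93, 1.08, 0.62 and 0.58.

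Pf4 and Ppbp, chemokine genes best known from platelets and megakaryocytes, were also among the 10 genes with the smallest p. Pf4 had 58.9, 155 and 113 CPM in DSF tumours, against 40.02, 36.9 and 35.4 CPM in anti-PD-1 tumours and 31.2, 54.7 and 65.5 CPM in controls (log2 fold change 1.54 ± 0.33, edgeR adjusted p = 0.195). Ppbp had 1.55, 10.1 and 5.13 CPM in DSF tumours, against 0.712, 0.786 and 0.903 CPM in anti-PD-1 tumours (log2 fold change 2.80 ± 0.66, adjusted p = 0.248). DSF replicate 2 was the highest in both, and without it the log2 fold changes were 1.2 and 2.05. The other 3 tested genes of a platelet list, drawn up after Pf4 and Ppbp had been seen, overlapped between the groups. Ccl24, an eosinophil-attracting chemokine made by macrophages, had 14.1, 26.7 and 11.4 CPM in DSF tumours and 5.69, 6.29 and 6.74 CPM in anti-PD-1 tumours (log2 fold change 1.48 ± 0.37, adjusted p = 0.298).

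**Figure D4:**
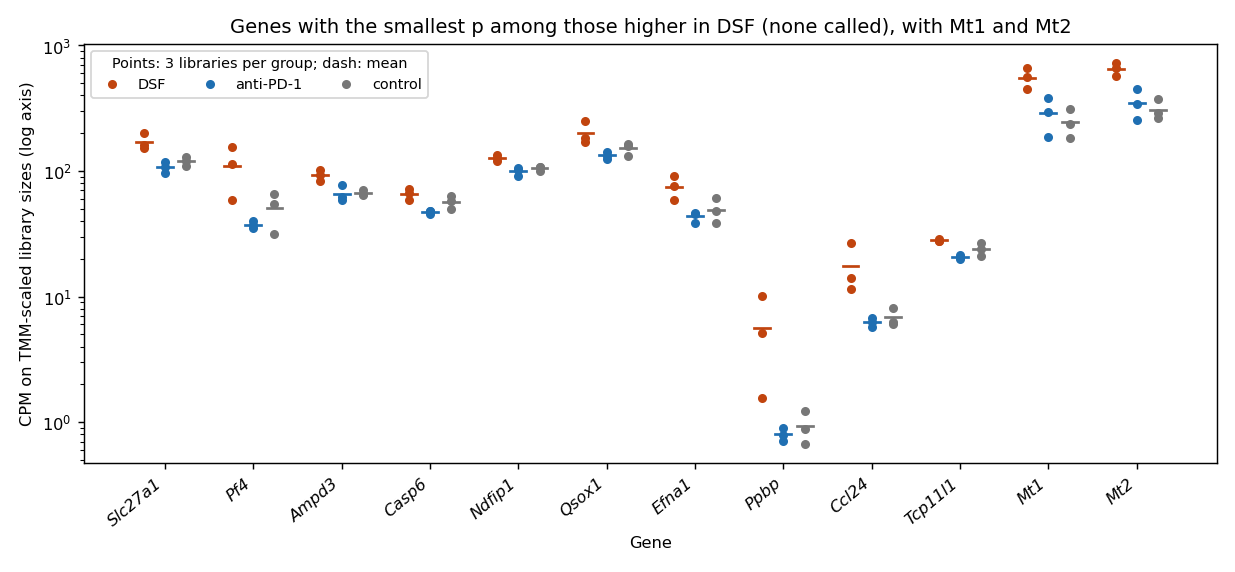
CPM (log axis) of the 10 genes with the smallest p that were higher in DSF tumours, with 1 point per library and a dash at each group mean, for DSF, anti-PD-1 and control tumours. None was called by edgeR with all libraries and no covariate, while Qsox1 was called with the adipocyte score as a covariate. Slc27a1 lies between 154 and 200 CPM in DSF tumours and between 96.9 and 118 CPM in anti-PD-1 tumours.

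No gene of the macrophage or neutrophil lists was called by edgeR. Without DSF replicate 1, edgeR called Mpeg1, Cybb and Cd180, which are in neither list and are named here after the calls were seen. Of 19 macrophage genes tested 10 had a negative log2 fold change, where 44.9% of all genes did, and the median was -0.15. Without DSF replicate 2, 16 of 19 were negative, against 49.9% of all genes, and the median was -0.27. Arg1, the arginase gene, had 103, 387 and 193 CPM in DSF tumours, against 64.7, 85.2 and 56.9 CPM in anti-PD-1 tumours and 35.9, 113 and 147 CPM in controls (log2 fold change 1.72 ± 0.55, edgeR adjusted p = 0.473). Fcgr1, a high-affinity Fc receptor gene that interferon gamma induces, had 36.4, 45.6 and 27.9 CPM in DSF tumours and 84.8, 47.1 and 58.4 CPM in anti-PD-1 tumours (log2 fold change -0.79 ± 0.25, adjusted p = 0.454). Cd163, a scavenger receptor gene of resident macrophages, had 40.1, 397 and 44.8 CPM in DSF tumours and 61.6, 33 and 35.7 CPM in anti-PD-1 tumours, so its log2 fold change of 1.89 rested on DSF replicate 2 and was -0.03 without it. The 21 neutrophil genes had a median of 0.16 and none had an unadjusted p under 0.05. S100a8, a calprotectin subunit gene, had 76.3, 83.6 and 61.8 CPM in DSF tumours and 80.1, 104 and 90.6 CPM in anti-PD-1 tumours, and Mmp9, a granule protease gene, had 246, 323 and 254 CPM in DSF tumours and 197, 207 and 141 CPM in anti-PD-1 tumours. Cxcl3, a neutrophil-attracting chemokine, had 11.8, 14.5 and 22.7 CPM in DSF tumours and 3.97, 5.02 and 8.30 CPM in anti-PD-1 tumours (log2 fold change 1.5 ± 0.55, adjusted p = 0.579).

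Pathways linked to DSF were examined for the same contrast. The metallothioneins Mt1 and Mt2, which bind copper and zinc, were higher in level in each DSF library than in any anti-PD-1 library, without passing the test. Mt1 had 656, 557 and 449 CPM in DSF tumours, against 188, 383 and 297 CPM in anti-PD-1 tumours and 313, 237 and 184 CPM in controls (log2 fold change 0.94 ± 0.27, edgeR adjusted p = 0.403). Mt2 had 725, 657 and 566 CPM in DSF tumours, against 253, 454 and 341 CPM in anti-PD-1 tumours and 373, 291 and 263 CPM in controls (log2 fold change 0.89 ± 0.24, adjusted p = 0.331). Both values were 0.93 and 0.89 without DSF replicate 2. Slc39a14, a zinc importer gene, had 199, 221 and 232 CPM in DSF tumours and 151, 190 and 147 CPM in anti-PD-1 tumours. The other 16 of the 19 metal-handling genes tested had overlapping groups, and the median of the list was 0.08.

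Among glutathione and aldehyde enzymes no gene was called by edgeR. Gsta1, a glutathione transferase gene, had 2.13, 1.81 and 1.69 CPM in DSF tumours, against 0.356, 0.786 and 0.903 CPM in anti-PD-1 tumours and 0.365, 0.310 and 0.176 CPM in controls (log2 fold change 1.45 ± 0.42, edgeR adjusted p = 0.403). Its 22-member list had a median of 0.20. Aldh2, the mitochondrial enzyme that clears acetaldehyde, had 177, 280 and 168 CPM in DSF tumours and 149, 198 and 160 CPM in anti-PD-1 tumours, with overlap. The 18 aldehyde dehydrogenase genes had a median of 0.28, and of -0.24 without DSF replicate 2. Aldh1l1 shows the change: it had 8.58, 104 and 8.80 CPM in DSF tumours and 10.4, 15.6 and 8.06 CPM in anti-PD-1 tumours. Aldh9a1 had 81.3, 109 and 89.2 CPM in DSF tumours and 75.6, 77.8 and 78.3 CPM in anti-PD-1 tumours, at a log2 fold change of 0.27.

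In the lists of the p97 pathway, inflammasome and DNA methylation edgeR called no gene with all libraries. Nploc4, a p97 cofactor gene, had 120, 113 and 94.2 CPM in DSF tumours and 131, 124 and 123 CPM in anti-PD-1 tumours (log2 fold change -0.20 ± 0.10, edgeR adjusted p = 0.666). Gsdmd, which encodes gasdermin D, had 59.1, 46.8 and 61.2 CPM in DSF tumours and 76.6, 74.0 and 51.4 CPM in anti-PD-1 tumours, with overlap. Casp4, the gene of an inflammatory caspase upstream of it, had 34.5, 34.0 and 37.8 CPM in DSF tumours and 45.9, 45.6 and 39.0 CPM in anti-PD-1 tumours (log2 fold change -0.30 ± 0.10, adjusted p = 0.514). Cdca7, a partner of the DNA methylation remodeller Hells, had 57.8, 46.9 and 53.2 CPM in DSF tumours, against 72.6, 72.0 and 72.9 CPM in anti-PD-1 tumours and 83.7, 76.3 and 86.4 CPM in controls (log2 fold change -0.46 ± 0.10, adjusted p = 0.211). For Nploc4, Casp4 and Cdca7 all DSF libraries lay below all anti-PD-1 libraries. The lists of the p97 pathway, inflammasome and DNA methylation had medians of 0.04, -0.28 and -0.13. The shares of their genes without overlap in this direction were 7.14%, 6.25% and 7.69%, against 5.23% of all genes.

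Glucocorticoid-responsive genes had one sign throughout. All 15 tested had a positive log2 fold change, where 55.1% of all genes did, with a median of 0.47 and none called. Klf9, a direct target of the glucocorticoid receptor, had 19.5, 36.1 and 23.2 CPM in DSF tumours, against 14.0, 19.6 and 17.0 CPM in anti-PD-1 tumours and 12.1, 11.6 and 11.2 CPM in controls (edgeR adjusted p = 0.514). Angptl4, a lipoprotein lipase inhibitor gene that also answers to fasting and hypoxia, had 96.8, 226 and 83.7 CPM in DSF tumours and 72.1, 56.0 and 44.7 CPM in anti-PD-1 tumours (adjusted p = 0.451). DSF replicate 2 was highest in both, and without it 12 of 15 were positive and the median was 0.26. Of 26 hypoxia and glycolysis genes 24 were positive, with a median of 0.14; Bnip3, a mitophagy gene induced by hypoxia, had 368, 338 and 367 CPM in DSF tumours and 219, 296 and 282 CPM in anti-PD-1 tumours.

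Housekeeping programmes had small medians, with most members on one side. The 28 cell cycle genes had a median of -0.10, the 31 proteasome genes -0.07 and the 26 respiratory chain genes 0.08, with none called. Negative values were found in 24 cell cycle and 27 proteasome genes, and positive values in 23 respiratory chain genes. Over all genes 44.9% were negative and 55.1% positive. Without DSF replicate 2 the respiratory chain median was -0.03, and 10 of 26 were positive. Krt18, the partner keratin of Krt8 in simple epithelium, had 651, 561 and 598 CPM in DSF tumours and 480, 574 and 485 CPM in anti-PD-1 tumours, with overlap. Krt19 had 5.49, 23.4 and 7.48 CPM in DSF tumours and 1.54, 4.29 and 2.83 CPM in anti-PD-1 tumours, without overlap (log2 fold change 2.07 ± 0.64, edgeR adjusted p = 0.454).

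Several stromal lists owed their sign to DSF replicate 2. The median of the adipocyte list was 3.69 with this library and -1.71 without it, that of fibroblasts and collagens 0.36 and -0.56, that of pericytes and smooth muscle 0.65 and -0.68, and that of erythroid genes 0.63 and -0.43. Endothelial genes had a median of 0.83 with it and 0.01 without it; Emcn, an endothelial sialomucin gene, had 10.6, 33.3 and 18.3 CPM in DSF tumours and 12.2, 11.4 and 6.68 CPM in anti-PD-1 tumours. Col1a1, the main fibrillar collagen gene, had 173, 2178 and 606 CPM in DSF tumours and 717, 914 and 341 CPM in anti-PD-1 tumours. Thrsp, a lipogenic gene of adipocytes, had 0.129, 245 and 0 CPM in DSF tumours and 0.712, 2.60 and 0.481 CPM in anti-PD-1 tumours. No direction between the treatments can be read from these lists.

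Skin genes kept their sign: their median was -1.69 with DSF replicate 2 and -1.73 without it. No gene of the skin list was called by edgeR with all libraries and no covariate. With the adipocyte score as a covariate, edgeR called the epidermal genes Flg2, Krt77, Lce1a1, Lce1a2 and Lce1e, which are outside this list. They are named here after the calls were seen. Flg, the epidermal barrier gene, had 3.36, 0.812 and 1.03 CPM in DSF tumours, against 22.4, 3.51 and 11.4 CPM in anti-PD-1 tumours and 7.25, 9.72 and 8.35 CPM in controls (log2 fold change -2.83 ± 0.73, edgeR adjusted p = 0.309). Krt14, of the basal epidermis, had 105, 40.02 and 39.2 CPM in DSF tumours and 295, 12.2 and 141 CPM in anti-PD-1 tumours, with overlap, and Krt1, of its upper layers, had 8.13, 15.0 and 3.23 CPM in DSF tumours and 96.5, 12.6 and 41.5 CPM in anti-PD-1 tumours. Anti-PD-1 replicate 2 was within the range of the DSF libraries for Krt1 and below it for Krt14.

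**Figure D5:**
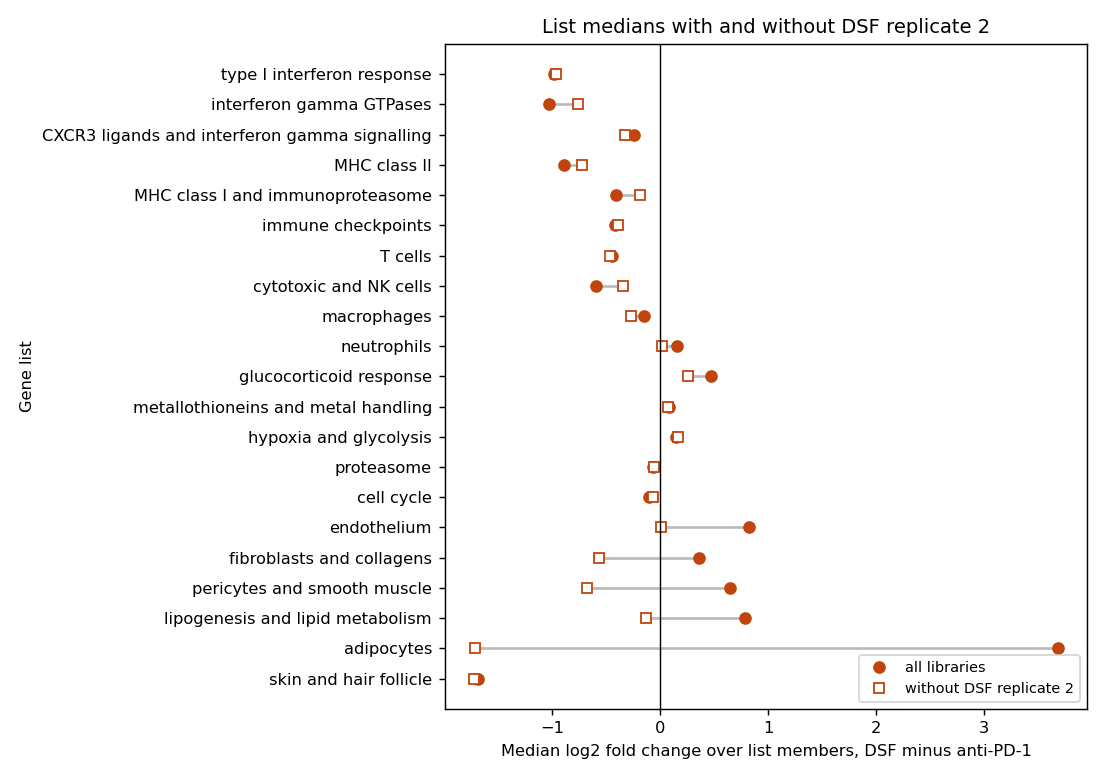
Median log2 fold change of DSF minus anti-PD-1 over the members of each list, with all libraries and without DSF replicate 2, joined by a line. The type I interferon, GTPase and MHC class II medians stay negative (-0.99 and -0.96, -1.03 and -0.76, -0.89 and -0.72), while the adipocyte median changes sign (3.69 and -1.71).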

How the data were processed

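Libraries of 12 tumours were read on a BGISEQ-500 sequencer, per the labels' protocols. The authors deposited expected counts per gene, of which 9.02% are not whole, and FPKM values. RSEM 1.2.12, HISAT2 2.0.4, DESeq2 1.4.5 and Bowtie2 2.2.5 are named, without roles, per the submitters' processing notes; the genome build and the strand setting are not given in the sources used here, so antisense and overlapping genes cannot be told apart. Table columns were matched to samples by the deposited group plan and their numbers, and a control column ending in 11 was read as control 1.

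Expected counts were rounded and filtered with filterByExpr (14144 of 18433 genes kept), scaled by TMM and fitted with edgeR 4.0.16 in R 4.3.3, with 1 mean per group over all 12 libraries. The biological coefficient of variation was 0.277. The contrast was DSF minus anti-PD-1, tested two-sided with Benjamini-Hochberg adjustment over all genes tested and called at 0.05. CPM use TMM-scaled library sizes. Shares of counts cover counting error only and have narrow 95% Wilson intervals, for example 0.0195% to 0.021% for the lowest adipocyte share.

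The genes, 42 lists and 2 added lists were chosen with earlier results of these data known, so lists have counts and medians and no test. Genes were named by rule: the 10 smallest p in each direction, the 5 smallest without DSF replicate 2, the 3 smallest and the most abundant of each list, and a set of fixed genes. Not every gene the rule admits is printed, and 1 item is not reported here.

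Alternatives were RLE scaling, library totals, no filter or a 5 CPM filter in 3 libraries, DESeq2 1.42.0, limma 3.58.1, the 6 libraries alone, each replicate left out, a replicate block and an adipocyte score. The skin score and the omission of control or combination replicates were added after seeing the data. The script was tested on simulated data. Promoters came from RefSeq (GRCm38.p6).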

Additional observations from a re-analysis of the deposited data

How the results depend on the processing

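The count of called genes was 10, all lower in DSF, and moved with the processing, while the medians of the interferon lists kept their sign under all 22 alternatives: -1.08 to -0.88 for the type I interferon list, -1.17 to -0.76 for the GTPases and -1.06 to -0.59 for MHC class II. It was 9 with RLE scaling, 9 with no filter, 21 with library totals only, 18 with the 5 CPM filter and 16 with limma, all of them lower in DSF. DESeq2 called 146 genes, 125 lower and 21 higher. With the 6 libraries alone it was 0. The adipocyte score gave 29, with 28 lower and 1 higher, and the skin score gave 2, both lower. Leaving out 1 library at a time gave 0 to 27 calls, with 0 to 24 lower and 0 to 3 higher. Whether the replicate numbers pair the tumours is not known. The correlations of deviations from the group means were -0.127, 0.0415 and 0.298 for same-numbered libraries. For differently numbered libraries they ran from -0.465 to 0.414, and so few values cannot decide the question. A replicate block gave 12 calls, 9 of them shared.

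Genes that changed sign did so mostly without DSF replicate 2. Over the omissions of 1 library the log2 fold change ran from -1.90 to 1.94 for Ifi27l2a, from -0.33 to 0.022 for Gzmb, from -0.030 to 2.35 for Cd163, from -0.39 to 2.33 for Aldh1l1, from -3.06 to 4.42 for Adipoq, from -4.07 to 7.10 for Thrsp and from -0.76 to 1.08 for Col1a1. Ifi27l2a was -0.25 with limma. With the adipocyte score Ifi27l2a was -0.68, Adipoq -0.93, Thrsp -0.55 and Col1a1 -0.0092, and with the skin score Krt14 was 1.33. Adipoq and Thrsp are members of the adipocyte score and Krt14 of the skin score, so their own changes of sign are partly built in. The causes were not tested. With 3 libraries per group, a gene that missed the threshold is not shown to be equal, and genes under 5 CPM, such as Ifng and Pdcd1, rest on few reads.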
